A study of Mus musculus with 6 samples.

Results

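Lactotransferrin (Ltf), lipocalin 2 (Lcn2), complement C3, Clca1, mucin 1 (Muc1) and oviductal glycoprotein 1 (Ovgp1) are proteins that epithelia of the female tract release or carry at their surface, and they were followed in the mouse uterus over 24 h after progesterone. Members were all probe sets whose platform annotation gives 1 of these 6 symbols as the only gene. This held for 8 probe sets of 12422 on the array, leaving its controls aside, and they cover 5 of the 6 genes, out of 8251 genes named on the array. C3 had no such probe set, so it was not analysed here. Ltf and Muc1 had 1 probe set each, and Lcn2, Clca1 and Ovgp1 had 2 each.

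RNA came from whole uterine horns of 129/SvImJ wildtype females aged 10 to 16 weeks, 14 days after ovariectomy, which removes the ovarian source of estrogen and progesterone. Groups were an uninjected one, called 0 h, and animals killed 6, 12, 15, 18 and 24 h after 0.2 mg progesterone in 0.1 mL sesame oil under the skin. Each group was 1 pool of 8 horns from 4 mice on 1 Affymetrix array, so the 6 arrays hold no replicates and precision is limited by how few they are. No mice given oil alone were analysed here, and no group received estrogen, so injection and progesterone cannot be told apart. All differences from 0 h share the single 0 h array. Array medians ran from 7.12 to 7.22 in log2 units, with 7361 to 7557 probe sets on each array above the floor described below.

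In the rodent uterus estrogen acts through its receptor in epithelium and stroma to make luminal and glandular epithelium proliferate and secrete, and Ltf and C3 are textbook products of that response. Progesterone opposes much of this epithelial response. Ltf and Lcn2 bind iron or iron-carrying siderophores, C3 is the central complement protein, Muc1 covers the luminal surface, and Clca1 and Ovgp1 are glycoproteins of secretory cells. Ltf and Lcn2 are also stored in neutrophil granules, and Ovgp1 is best known from the oviduct.

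Values are log2 expression as deposited. The table has a shared lower limit of 5.39, and a value there is an upper bound on the level. Tests and 2-fold counts used values raised to a floor of 6.60, the 40th percentile of all values, and only probe sets above it on at least 2 arrays, which are called analysed. Of the 8 member probe sets 6 were analysed, and these had passed partly because of the arrays on which they were high. The remaining ones were 161684_r_at of Lcn2 and 100623_at of Clca1, which are described but not tested.

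Ltf was lower than at 0 h on every progesterone array, and Lcn2 was first higher and then lower. Clca1 went down in steps to the lower limit on 162287_r_at but not on 100623_at. Ovgp1 was lower on every progesterone array with its lowest values at 12 h, and Muc1 moved least. Against 0 h, limma compared the 5 progesterone arrays as a group, and in a separate fit it took hours after injection as a number. Both fits take their spread from the scatter between times and give the only 0 h array the same one. In the group fit 1 member probe set, that of Ltf, was called lower at an adjusted p under 0.05 and 0 were called higher, against 1.8% and 0.893% of the 7724 probe sets tested. An unadjusted p under 0.05 was reached by 5 of the 6, all lower and with both probe sets of Ovgp1 among them, and by 19.0% of all. In the fit over hours 1, that of Clca1, was called lower and 0 higher, against 0.116% and 0.194% of 7731. Here 3 of the 6 had an unadjusted p under 0.05, again lower, and 16.2% of all did.

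**Figure D1:**
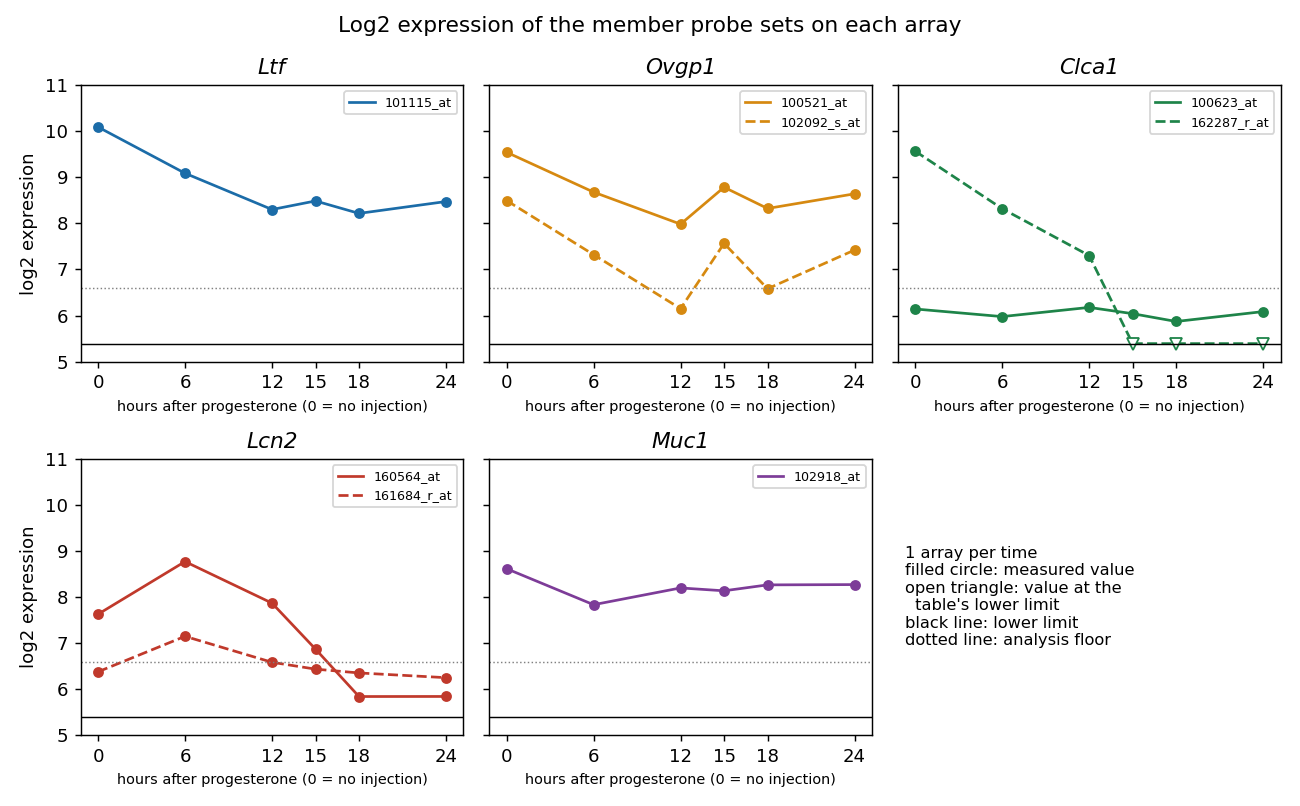
Log2 expression (vertical axis) of the 8 member probe sets against hours after progesterone (horizontal axis, 0 for no injection), 1 array per time and 1 panel per gene. Open triangles mark the 3 values of Clca1 at the lower limit of 5.39 (black line), the dotted line is the floor of 6.60, and Lcn2 is the gene whose value at 6 h stands above that at 0 h on both probe sets.

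Promoters of 5 of the 6 genes matched in the RefSeq table (build GRCm38.p6, 250 bases before to 50 after the start), and Clca1 did not match. Those of Ltf, Ovgp1, Lcn2 and Muc1 are shown, since these are the matched genes that were also measured. Capitals mark GGTCA, the core of an estrogen response element, AGAACA, the core of progesterone and glucocorticoid elements, and the TATA box letters TATAAA, on either strand, so TGACC and TGTTCT count as well. They lie at chr9:111019042-111019341 (plus strand), chr3:105973552-105973851 (plus strand), chr2:32387690-32387989 (minus strand) and chr3:89228806-89229105 (plus strand) in that order, and each is written 5′ to 3′ along its gene.
Ltf: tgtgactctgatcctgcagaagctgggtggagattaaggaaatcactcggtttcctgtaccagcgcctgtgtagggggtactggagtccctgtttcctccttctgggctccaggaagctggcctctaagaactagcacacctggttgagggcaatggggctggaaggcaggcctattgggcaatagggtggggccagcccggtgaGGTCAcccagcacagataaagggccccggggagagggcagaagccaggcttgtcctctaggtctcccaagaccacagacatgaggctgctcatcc
Ovgp1: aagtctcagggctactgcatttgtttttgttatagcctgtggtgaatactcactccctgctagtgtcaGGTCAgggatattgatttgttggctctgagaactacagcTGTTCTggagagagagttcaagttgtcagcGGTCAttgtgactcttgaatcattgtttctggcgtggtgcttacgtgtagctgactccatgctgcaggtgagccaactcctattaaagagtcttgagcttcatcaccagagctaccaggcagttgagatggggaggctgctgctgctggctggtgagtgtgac
Lcn2: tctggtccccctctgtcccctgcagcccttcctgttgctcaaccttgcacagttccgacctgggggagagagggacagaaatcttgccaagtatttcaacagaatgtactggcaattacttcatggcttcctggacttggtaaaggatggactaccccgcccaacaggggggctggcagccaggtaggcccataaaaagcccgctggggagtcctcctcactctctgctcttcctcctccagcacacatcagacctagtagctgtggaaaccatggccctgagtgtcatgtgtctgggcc
Muc1: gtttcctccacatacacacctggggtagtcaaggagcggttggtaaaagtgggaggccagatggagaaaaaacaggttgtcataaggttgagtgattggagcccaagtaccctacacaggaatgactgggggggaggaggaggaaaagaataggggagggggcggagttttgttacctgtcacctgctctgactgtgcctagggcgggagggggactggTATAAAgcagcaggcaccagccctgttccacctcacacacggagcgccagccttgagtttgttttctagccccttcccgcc
GGTCA stood in the promoters of Ltf (1 match), Ovgp1 (2 matches) and C3 (2 matches), which is 3 of 5, and not in those of Lcn2 and Muc1, while 40.5% of the 32851 promoters in the table hold it. AGAACA was found in that of Ovgp1 alone, against 19.0% of all promoters. The letters TATAAA were found in 2 of 5, those of Muc1 and C3, against 13.6% of all. The complete estrogen response element, GGTCA and TGACC with any 3 bases between them, was in 0 of the 5, as were the complete progesterone element, AGAACA and TGTTCT with any 3 bases between them, and the CCAAT/enhancer site TTGCGCAA. Of all promoters 0.0700%, 0.00913% and 0.183% hold these. All motifs were searched on both strands, a core lies within each complete element, and a match describes letters only.

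Ltf, which encodes the iron-binding milk and mucosal protein lactoferrin, was measured by probe set 101115_at on chromosome 9. Its log2 values were 10.09 at 0 h, then 9.09, 8.30, 8.48, 8.21 and 8.47 at 6, 12, 15, 18 and 24 h. All progesterone arrays lay below the 0 h array, by up to 1.87, and the 4 arrays from 12 h on lay within 0.27 or less of their neighbour in time. On the linear scale the level was 0.499 of that at 0 h by 6 h and 0.273 by 18 h. In the group fit Ltf fell to a mean of 8.51 ± 0.34 (SD over the 5 progesterone arrays), a difference of -1.58 ± 0.29 (SE, adjusted p = 0.035 with limma). Left-out arrays decide this call: it held without the 6 h array (adjusted p = 0.0057), but not without the 12, 15, 18 or 24 h array (adjusted p = 0.12, 0.11, 0.092 and 0.08) or without the filter on low values (0.15). In the fit over hours its slope was -1.66 ± 0.41 per 24 h (adjusted p = 0.12). Without the 24 h array it was -2.45 ± 0.37 (adjusted p = 0.045), a call gained, and among the 5 progesterone arrays alone it was -0.77 ± 0.38 (adjusted p = 0.29).

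Ovgp1, a secreted glycoprotein of the chitinase-like family that coats the egg in the oviduct, had 2 probe sets on chromosome 3. On 100521_at its values were 9.54 at 0 h and 8.68, 7.98, 8.78, 8.32 and 8.64 at the following times. On 102092_s_at, of a type that can pick up related transcripts, they were 8.49, 7.32, 6.15, 7.56, 6.58 and 7.42 in the same order. Both probe sets drew the same zigzag, with low points at 12 and 18 h and a return at 15 and 24 h, and correlated at r = 0.986 over the 6 arrays. The step from 12 to 15 h, singled out after the values were seen, was 0.80 on 100521_at and 0.97 on 102092_s_at on floored values. On the same scale the differences of all analysed probe sets between these arrays had an SD of 0.17. The middle 95% of them lay between -0.36 and 0.32. Neither step reached 2-fold, which 5 of 7716 probe sets did, and each of these times has 1 array. The mean difference from 0 h was -1.06 ± 0.28 on 100521_at (SE, adjusted p = 0.092) and -1.39 ± 0.38 on 102092_s_at (adjusted p = 0.096), so neither passed in limma. Over hours the slopes were -0.82 ± 0.45 and -1.08 ± 0.60 per 24 h (adjusted p = 0.41 and 0.42). Without the 0 h array they were 0.092 ± 0.45 and 0.12 ± 0.61, with adjusted p of 0.94 for each.

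Clca1 encodes a protein that mucous cells secrete and that is known as a regulator of calcium-activated chloride conductance, and its probe sets also lie on chromosome 3. On 162287_r_at the values were 9.56, 8.32 and 7.30 at 0, 6 and 12 h, and 5.39, the lower limit, at the later times. Each array up to 15 h lay below the one before it, and the level at 15, 18 and 24 h was at least 18.0-fold lower than at 0 h. In the fit over hours, where the floor of 6.60 shortens the scale, Clca1 fell by 3.17 ± 0.46 per 24 h (SE, adjusted p = 0.046 with limma). Its values at 15, 18 and 24 h are equal at the lower limit and at the floor, so their true scatter does not enter this p. With no floor the slope was -4.71 ± 0.62 (adjusted p = 0.029 with limma). Over the alternatives the adjusted p ran from 0.022 without the 24 h array to 0.29 without the filter on low values. It missed the threshold without the 0, 6, 12, 15 or 18 h array (0.061, 0.10, 0.11, 0.10 and 0.21), with a floor taken at the 60th percentile (0.10), with quantile normalization (0.061) or without the intensity trend (0.055).

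The group fit gave Clca1 a mean difference of -2.48 ± 0.60 on this probe set (adjusted p = 0.074). It passed without the 6 h array (-2.79 ± 0.30, adjusted p = 0.012) and under a floor at the 60th percentile (-1.74 ± 0.24, adjusted p = 0.014). In both of these fits floored values are equal, from 15 h on at 6.60 and from 12 h on at 7.70. This narrows the spread, so both p can be too small. The other probe set, 100623_at, showed no such course, with 6.14, 5.98, 6.18, 6.04, 5.87 and 6.09 from 0 to 24 h. It was below the floor on all 6 arrays. The 2 probe sets correlated at r = 0.420. Probe sets ending in _r_at were designed under relaxed selection rules, so the course of Clca1 rests on 1 probe set of that type.

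Lcn2, the siderophore-binding lipocalin of mucosal defence, was the member with a change of direction. On 160564_at, chromosome 2, its values from 0 to 24 h were 7.63, 8.77, 7.87, 6.87, 5.84 and 5.85. The 6 h array was the highest of all 6 and 2.21-fold above 0 h. The arrays at 18 and 24 h lay below the floor, at 0.290 and 0.291 of the 0 h level on the deposited scale. From 6 to 18 h each array was lower than the one before by 0.90 to 1.03.

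Of 7672 analysed probe sets with values on every array, 1 was at least 2-fold higher than 0 h at 6 h and at least 2-fold lower at 24 h on floored values (0.013%), and it was this one of Lcn2, a count chosen after its values were seen. Its floored difference at 24 h, -1.03, lay close to the 2-fold limit. Among the 5 progesterone arrays Lcn2 fell by 3.11 ± 0.52 per 24 h (SE, adjusted p = 0.037 with limma), where 0.88% of 7729 probe sets were called lower and 1.02% higher. That fit does not use the 0 h array. With it the slope was -1.76 ± 0.60 (adjusted p = 0.21), and the mean difference from 0 h was -0.29 ± 0.75 (adjusted p = 0.88), since higher and lower times cancel in it. The other probe set, 161684_r_at, held 6.38, 7.15, 6.59, 6.44, 6.36 and 6.25 from 0 to 24 h. It was highest at 6 h too but above the floor on that array alone, and the 2 correlated at r = 0.837.

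Muc1, a mucin anchored in the apical membrane of epithelium whose outer part can be shed, was measured by 102918_at on chromosome 3. Its values were 8.61 at 0 h, 7.83 at 6 h and 8.20, 8.14, 8.26 and 8.27 from 12 to 24 h. It was lowest at 6 h, and all progesterone arrays lay below 0 h by 0.34 to 0.78. The mean was 8.14 ± 0.18 on progesterone arrays (SD, n = 5) and 8.61 on the 0 h array. This difference of -0.47 ± 0.18 did not pass in the group fit (adjusted p = 0.22), nor did the slope of -0.12 ± 0.28 per 24 h (adjusted p = 0.88). Without the 0 h array the slope was 0.55 ± 0.22 (adjusted p = 0.20).

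Counted at each time on floored values, 3, 4, 2, 5 and 4 of the 6 analysed member probe sets were at least 2-fold lower than 0 h at 6, 12, 15, 18 and 24 h. Over all analysed probe sets the shares were 1.1%, 1.75%, 1.58%, 1.8% and 1.39%. The 1 that was at least 2-fold higher was that of Lcn2 at 6 h, where 1.41% of all probe sets were; at the later times 0 members were, against 1.83%, 2.05%, 1.14% and 1.06%. Ltf and Clca1 were 2-fold lower at all 5 times, as were 0.443% of all. Ltf stood at the limit at 6 h (-1.002), and under quantile normalization or centring on the median (-0.95 and -0.96) it passed at 4 times and the count of members at 6 h was 2. By the same count Ovgp1 was 2-fold lower at 2 times on 100521_at and at 4 on 102092_s_at. The median difference of the 6 was -0.93, -1.67, -0.84, -1.55 and -1.05 at the 5 times, against medians between -0.05 and 0.03 over all analysed probe sets. These counts have no replicate check at any single time. Of the 6 probe sets 2 are those of Ovgp1, which correlated at r = 0.986, so this gene counts more than once. The members were chosen with earlier results of these data known, so the shares over all probe sets are given for scale only.

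**Figure D2:**
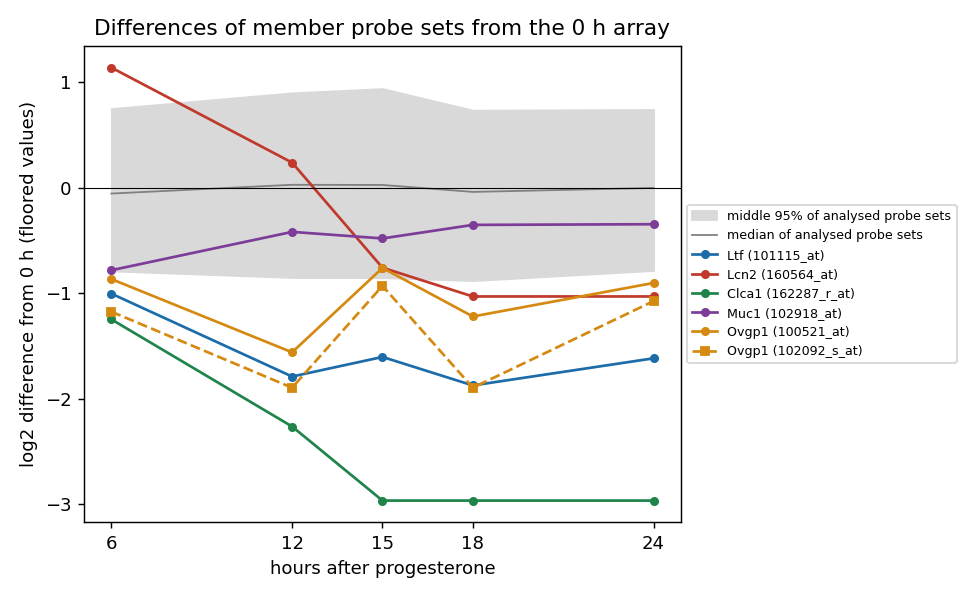
Log2 difference from the 0 h array on floored values (vertical axis) for the 6 analysed member probe sets at 6, 12, 15, 18 and 24 h after progesterone (horizontal axis), over the band that holds the middle 95% of analysed probe sets. Ltf lies below the band at every time, Lcn2 is above it at 6 h (1.14) and below it at 18 and 24 h (-1.03), and Muc1 lies within it throughout.

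The genes most like each member were taken as the 5 with the highest Pearson r over the 6 arrays among analysed, named probe sets with a range of at least 1. Muc1, with a range of 0.78, was left out of this. These describe the same 6 arrays, with no test. For Ltf they were Ephx1, an epoxide hydrolase (r = 0.994), Vamp4, a SNARE protein of vesicle fusion (0.994), Zfp36l2, which binds AU-rich messages (0.990), Smpdl3a, a phosphodiesterase (0.988), and Adra2c, an adrenergic receptor (0.988). Ephx1 had values of 10.01, 9.14, 8.30, 8.32, 8.12 and 8.46 from 0 to 24 h. Other probe sets of Vamp4 and Zfp36l2 showed smaller median differences from 0 h, -0.36 for Vamp4 and -0.33 and -0.27 for Zfp36l2.

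For Clca1 on 162287_r_at they were Gm4788 (r = 0.994), the metalloprotease Adamdec1 (0.983), the epithelial keratin Krt7 (0.977), the kallikrein Klk1b1 (0.969) and Aldh1a1, which makes retinoic acid (0.966). Adamdec1 shared the arrival at the lower limit, with 7.57, 7.24, 6.13, 5.39, 5.45 and 5.39. The probe sets of Gm4788 and Klk1b1 match families of near-identical genes, so their identity is uncertain. For Lcn2 the closest were Wwc1, a scaffold protein (r = 0.982), the interleukin receptor chain Il18r1 (0.959), the dipeptidase Cndp2 (0.954), the small GTPase Rhou (0.950) and the phosphatase Pptc7 (0.941). All 5 were highest at 6 h, by 0.24 to 0.43 over 0 h, against 1.14 for Lcn2. Another probe set of Rhou had a median difference of 0.11 and one of Wwc1 of -0.64.

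For Ovgp1 on 100521_at the closest were 2 probe sets annotated to variable segments of the immunoglobulin kappa light chain (r = 0.978 and 0.967), followed by Fam107b (0.935), Rad51b, a DNA repair protein (0.933), and Use1, a SNARE protein (0.929). The closer of both light chain probe sets had 9.16, 8.41, 7.98, 8.39, 8.20 and 8.52 from 0 to 24 h, the same low point at 12 h. They can pick up many related antibody segments, so they stand for light chains and not for single genes. On 102092_s_at, both light chain probe sets, Rad51b and Use1 were again among the 5, with Dbndd2 (0.908). Among the members themselves Ltf correlated at 0.884 with Ovgp1 on 100521_at and at 0.859 with Clca1, while Lcn2 and Ovgp1 gave 0.129.

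**Figure D3:**
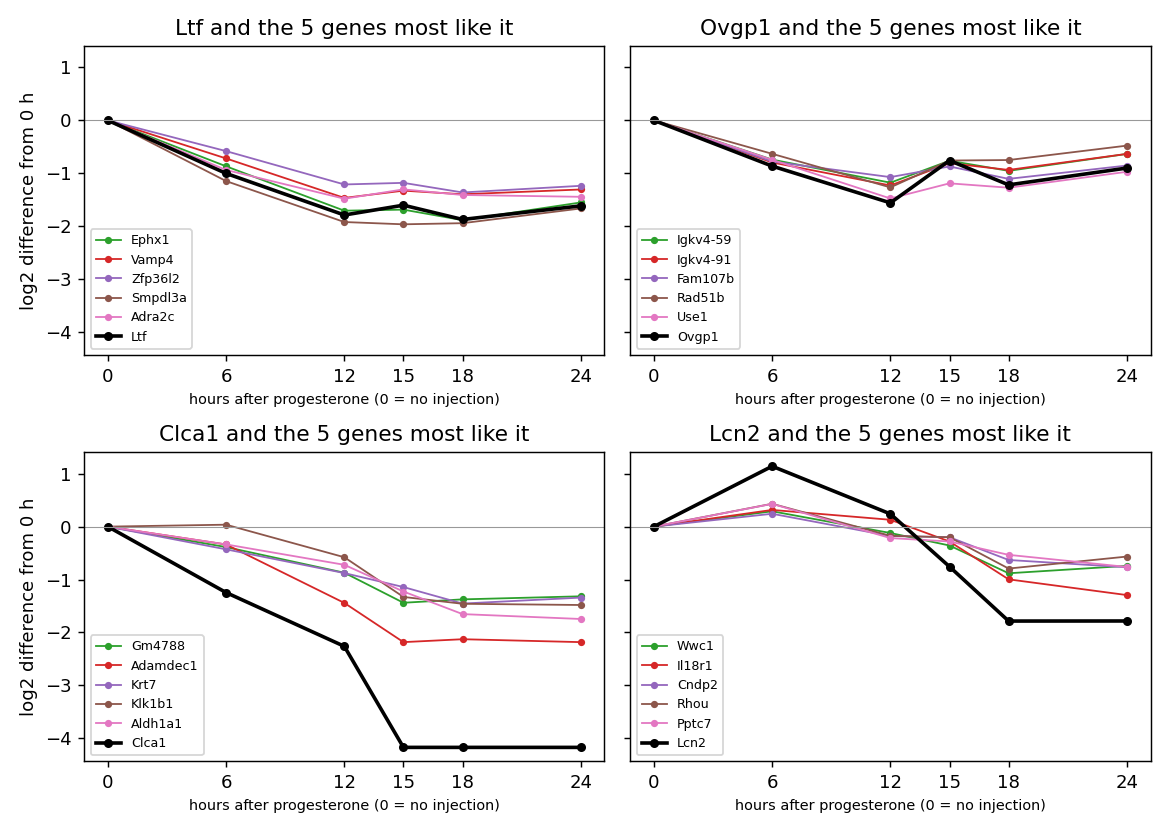
Log2 difference from the 0 h array (vertical axis, values as deposited) against hours after progesterone (horizontal axis) for Ltf (101115_at), Ovgp1 (100521_at), Clca1 (162287_r_at) and Lcn2 (160564_at) in black, each with the 5 genes of highest Pearson r over the 6 arrays. At 18 h the 5 genes beside Ltf lie between -1.94 and -1.36 and Ltf at -1.87, while Clca1 from 15 h on (-4.17, an upper bound) and Lcn2 at 6 h (1.14) lie further from 0 than the genes most like them.

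Genes that estrogen is known to induce in the mouse uterus, other than the members, did not share the lower values as a list, as far as they were analysed. Of 28 listed 21 had a probe set and 16 were analysed, with median differences between 0.01 and 0.14 at the 5 times. Sprr2a1, Sprr2a2, Sprr2a3, Aqp5, Greb1, Areg and Gabrp had no probe set, and Padi4, Klk1, Egf and Inhbb were below the floor on every array. Sprr2f was above the floor at 0 h alone, with 6.83 there and 5.70 to 6.46 on progesterone arrays. By gene the median difference ran from -0.37 (Padi1) to 1.80 (Igf1), and it was negative for 4 of the 16. The growth factor Igf1 rose on 95546_g_at by 1.87 ± 0.24 (SE, adjusted p = 0.01 with limma). It was the 1 of the 16 that was called, and 0 were called lower. Of all probe sets tested in the group fit 0.893% were called higher and 1.8% lower. In lists as short as this and those below, 0 called is near these shares. The other probe set of Igf1 gave a median difference of 0.08. Odc1, the rate-limiting enzyme of polyamine synthesis, had 6.45, 7.31, 8.00, 8.04, 7.66 and 7.44 from 0 to 24 h, at least 2-fold above 0 h at 3 times on floored values (adjusted p = 0.085).

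Among 20 secreted defence proteins of mucosa 12 were analysed, of which Lgals3 had no value at 0 h, and 0 were called. List medians ran from -0.51 at 18 h to -0.13 at 12 h. Of 20 complement proteins that act with C3, 10 were analysed and all had a negative median difference. Among them Cd55, which protects cells from complement, fell by 1.08 ± 0.13 (adjusted p = 0.0094) and Serping1, the inhibitor of the C1 protease, by 0.79 ± 0.13 (adjusted p = 0.029). The list medians lay between -0.38 and -0.23.

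For iron and siderophore binding and uptake, 11 of 15 genes were analysed, with medians between -0.16 and -0.04. Lrp2, the endocytic receptor megalin, which takes up Lcn2, rose by 3.01 ± 0.20 (adjusted p = 0.00057), and its values were 9.61 to 10.21 after progesterone and 6.90 at 0 h. Hp, the hemoglobin-binding protein haptoglobin, fell by 1.03 ± 0.20 (adjusted p = 0.042). Mucins and mucous cell proteins gave 9 analysed of 23, 0 called, and medians between -0.24 and 0.05. Of 23 family relatives of the members 15 had a probe set and 3 were analysed, with 0 called and medians between -0.19 and 0.19. Of 7 steroid receptors 3 were analysed, with 0 called and medians between -0.52 and -0.14. Their group differences were -0.61 ± 0.13 for Esr1, -0.31 ± 0.16 for Pgr and 0.16 ± 0.15 for Esrra (adjusted p = 0.054, 0.36 and 0.63 with limma).

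**Figure D4:**
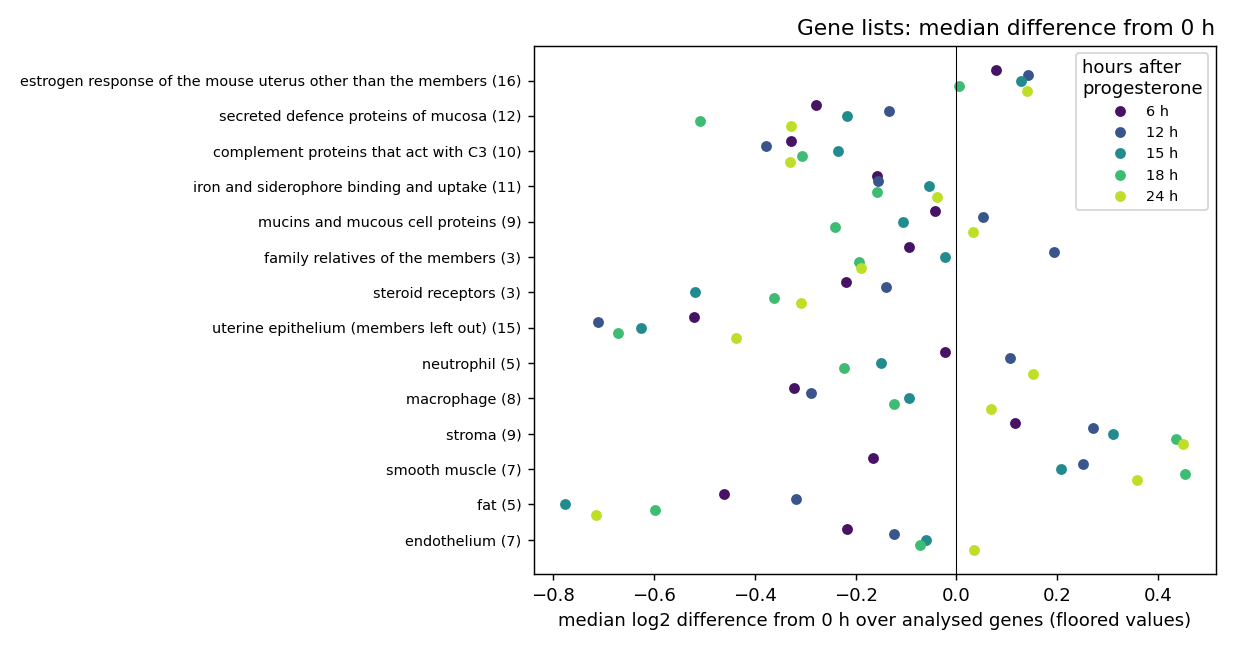
Median log2 difference from the 0 h array on floored values (horizontal axis) for gene lists with at least 3 analysed genes (vertical axis, number analysed in brackets), 1 point per time after progesterone, taken over the genes with a value on both arrays. Uterine epithelium without the members lies between -0.71 and -0.44 and the other estrogen-induced genes between 0.01 and 0.14.

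Markers of uterine epithelium were in part lower. Of 18 markers, with the members left out, 17 had a probe set and 15 were analysed, and the summed linear level over the 17 was 10725 to 12281 on progesterone arrays and 15416 at 0 h. In the group fit 3 of the 15 were called lower and 0 higher, against 1.8% and 0.893% of all probe sets tested. Over hours 1 was called lower and 0 higher, against 0.116% and 0.194%. Epcam, an adhesion protein of epithelium, fell by 1.12 ± 0.14 (adjusted p = 0.01), Krt18, a keratin of simple epithelium, by 1.03 ± 0.16 (adjusted p = 0.024) and Dsp, a desmosome protein, by 0.88 ± 0.16 (adjusted p = 0.031). Krt7 fell by 1.51 ± 0.22 per 24 h (adjusted p = 0.046). The part of these differences in the values of the members was not tested, and in whole tissue fewer epithelial cells and less RNA per cell cannot be told apart. The median difference from 0 h over the 5 times was negative for 12 of the 15 markers and ran from -1.14 (Krt7) to 0.47 (Cldn3), with the claudins Cldn4 (0.16) and Cldn7 (0.11) above 0 too. Among the members this median difference was -1.62 for Ltf, -1.17 and -0.90 for Ovgp1 on 102092_s_at and 100521_at, and -0.42 for Muc1. Lcn2 had -0.76 on 160564_at and 0.06 on 161684_r_at, and Clca1 -4.17, an upper bound, on 162287_r_at and -0.10 on 100623_at. Wnt7a was at the lower limit and Spint2 below the floor on every array.

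Neutrophil markers were checked because neutrophils store Ltf and Lcn2. Of 14, 12 had a probe set and 5 were analysed, and S100a9, Ly6g, Mmp8 and Cxcr2 were at the lower limit and S100a8, Ngp and Mpo below the floor on all 6 arrays. Their summed linear level was 1999 to 2328 on progesterone arrays and 2156 at 0 h, and 0 were called. The median difference from 0 h was negative for 3 of the 5 analysed and ran from -0.49 (Mmp9) to 0.16 (Csf3r). Ciliated oviduct epithelium, relevant to Ovgp1, had 5 of 10 markers on the array, with Tekt1 and Mlf1 at the lower limit on every array, 2 analysed, 0 called, and sums of 907 to 1067 after progesterone against 1199.9 at 0 h. Their part in the values of Ovgp1 was not tested.

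Fat markers, which adhering tissue would bring, had lower sums as well. Of 9, 7 had a probe set, and the sum over the 6 with a value on every array, which leaves out Lpl, was 1053 to 1572 after progesterone and 2120.3 at 0 h, with 5 analysed and 0 called, and Adipoq, an adipocyte hormone, had 9.41, 8.38, 8.45, 6.88, 7.70 and 7.22 from 0 to 24 h. Over the analysed fat markers the median difference from 0 h ran from -1.72 (Adipoq) to -0.09 (Lep). It was negative for 4 of the 5, and Lpl had no value at 0 h. Lep had 9.02 at 0 h and 9.04 at 24 h. Macrophage markers (8 of 11 analysed, 0 called) summed to 3668 to 4429 after progesterone and 4291 at 0 h. Endothelial markers (7 of 8 analysed) summed to 3220.3 to 3642 after progesterone and 4305 at 0 h. Of these Cldn5, a tight junction protein, was the 1 called, and it fell by 1.29 ± 0.16 (adjusted p = 0.01). The list medians lay between -0.22 and 0.04. By marker the median difference ran from -1.29 (Cldn5) to 0.31 (Kdr), and it was negative for 5 of the 7. Stromal markers (9 of 10 analysed) summed to 14861 to 17487 after progesterone and 13330 at 0 h. Col1a1, a fibrillar collagen, rose by 1.88 ± 0.18 per 24 h (adjusted p = 0.019), and Col1a2 had 10.07 at 0 h and 11.44 at 24 h. By marker the median difference ran from -0.52 (Thy1) to 1.35 (Col1a1), and it was negative for 2 of the 9. Pdgfra had 0.02. Smooth muscle markers (7 of 8 analysed, 0 called) summed to 12596 to 18166 after progesterone and 13543 at 0 h over the 6 with a value on every array, which leaves out Actg2.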

How the data were processed

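The authors deposited 1 log2 value per probe set and array. The log base and the lower limit were read from the values themselves. How background was corrected and arrays were normalized is not stated in the labels. Per the labels, the maker's recommendations were followed for RNA, labelling and hybridization. Of 12487 probe sets 65 controls were left out. The 2% trimmed means of the linear values differed from their median by -4.10% to 3.42%, under the 5% at which arrays would have been rescaled. Of 12422 probe sets 10833 had 1 gene symbol in the platform annotation, 396 several and 1193 none. Only those with 1 symbol were named, and 10817 matched a current gene identifier.

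limma 3.58.1 in R 4.3.3 (lmFit, eBayes with an intensity trend) was fitted to the 7731 analysed probe sets on all 6 arrays, with Benjamini-Hochberg adjustment over all tested. It was tested on simulated data. Each gene of a list is given by its probe set with the highest mean. Named were all member probe sets, list genes called in a fit or 2-fold from 0 h at 3 or more times, and the 5 genes most like each member. Further list genes are named where they show the range of a list, lacked a value or were not analysed, as are the analysed steroid receptors. Cldn4, Cldn7, Col1a2 and Pdgfra are named outside these rules, beside others of their lists. Members, lists and rules were chosen with earlier results of these data known. Alternatives were the floor, the filter, quantile normalization, the intensity trend and each array left out. Sequences are from RefSeq, GRCm38.p6.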

Additional observations from a re-analysis of the deposited data

How the results depend on the processing

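The member probe sets called lower in the group fit numbered 1. Under a floor at the 60th percentile they numbered 2, with no filter on low values 0, and with each progesterone array left out 0 to 2. All probe sets called there numbered 208, and 43 to 590 with an array left out. In the fit over hours 1 member was called lower. Under a floor at the 60th percentile, no filter, quantile normalization or no intensity trend it was 0, and 0 to 2 with an array left out. All probe sets called there numbered 24, against 53 with no floor, 0 with no filter (1219 at an unadjusted p under 0.05), 4 with quantile normalization and 0 to 147 with an array left out (929 to 1118 at an unadjusted p under 0.05 in the fits with 0). The direction turned in 4 cases, none of them called. The group difference of Lcn2 was 0.25 under a floor at the 60th percentile. With an array left out the slope per 24 h ran from -0.36 to 0.55 for Muc1, from -1.42 to 0.092 for Ovgp1 on 100521_at and from -2.04 to 0.12 on 102092_s_at, and each highest value is the one without the 0 h array.

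The count of members 2-fold lower at 6 h was 2 under quantile normalization and under centring on the median, against 3, since Ltf (-1.002) came to -0.95 and -0.96. The counts at the other 4 times were the same under these settings. The floor is part of every such count, so it was no alternative for them. Of 135 differences at single times under alternatives, 19 moved by more than 0.19, the SD between 18 and 24 h, and all 19 came from the floor or from averaging probe sets. No paired analysis was possible because each group has 1 sample.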
